A study of Drosophila melanogaster with 24 samples.

Results

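The genes described are 9 enzymes and enzyme subunits of the tricarboxylic acid (TCA) cycle and of malate oxidation. They were chosen by name and matched to FlyBase gene identifiers: kdn, mAcon1, Idh3a, Idh3b, Scsalpha1, SdhA, SdhB, Mdh1 and Mdh2. All 9 were among the 17895 gene rows measured in larvae. Of the 10889 gene rows measured in embryos, 5 were members (Idh3b, Scsalpha1, SdhA, SdhB and Mdh2), and kdn, mAcon1, Idh3a and Mdh1 were not analysed here in embryos. All 9 passed the filter on low values wherever they were measured.

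RNA from whole Drosophila melanogaster embryos and larvae was sequenced to ask how loss of sima changes gene expression as the animals approach larval life. The protein made from sima is the Drosophila counterpart of HIF-1alpha, which is stabilised under low oxygen and switches on target genes. The mutants carried the alleles 1 and 20 of sima (Sima 1/20). The controls were heterozygotes with allele 1 over a wild-type chromosome (Sima 1/+), so every animal, controls included, carried allele 1. Both genotypes were sampled as embryos 8-12 h, 12-16 h and 16-20 h after egg laying and as larvae at 60 h, with 3 samples in each of the 8 groups. The labels name no agent, and the background strain and the way mutants were recognised are not given in the sources used here. The labels do not say whether the 3 samples came from separate collections, so p-values measure only the spread between these samples, which may be technical.

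The TCA cycle oxidises acetyl groups in the mitochondrial matrix and passes the electrons to the respiratory chain. Malate dehydrogenase closes the cycle by turning malate into oxaloacetate. A separate, cytosolic malate dehydrogenase runs the same reaction outside the mitochondrion, where together with aspartate aminotransferases and a mitochondrial carrier it shuttles reducing equivalents from glycolysis into the organelle. Drosophila larvae are known for a growth metabolism that couples high glycolysis and lactate dehydrogenase activity to an active TCA cycle.

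Levels are FPKM, fragments scaled to gene length and library size, as the authors deposited them. Their denominator was estimated to lie between 10.3 and 15.2 M fragments in the larval libraries and between 6.60 and 13.4 M in the embryonic ones (M, mega). The members stood on an estimated 124 to 6377 fragments for Mdh2, the widest range, and on 7077 to 11428 for mAcon1, the best covered. sima itself averaged 1.96, 2.58, 3.40 and 1.26 FPKM in 8-12 h, 12-16 h, 16-20 h and larval mutants, against 2.46, 3.18, 4.25 and 1.61 FPKM in the matching controls. Fold changes are differences of log2(FPKM + 1), mutant minus control, tested with limma over all 6784 embryo genes or 8619 larval genes that passed the filter. A gene was called at an adjusted p under 0.05. Before the results, 2 features of the libraries bear on them. RNAs listed as ones that mothers load into the egg summed to 303 to 656 FPKM over 9 marker genes in 12-16 h mutants and to 23.4 to 57.9 FPKM in 12-16 h controls. Replicate 2 of the 12-16 h controls had the highest sum of those controls. None of the 9 genes was at 0 in either group, and 5 of the 7 that could be tested were called higher in 12-16 h mutants. The 9 were bcd, osk, pgc, CycB, CycB3, bora, gnu, smg and exu. From 8-12 h to 12-16 h exu was called higher in both genotypes (log2 change 0.63 in controls, 0.48 in mutants), while in controls 6 of the 7 tested were called lower. How much of the sum was loaded by mothers was not tested. At 8-12 h the sum was 289 to 703 FPKM in mutants and 244 to 256 FPKM in controls (0 of 7 called), and at 16-20 h 192 to 298 FPKM in mutants and 44.5 to 76.6 FPKM in controls (5 of 7 called higher). At each embryo stage the sums did not overlap between genotypes. A fit with the level of these RNAs as a covariate used the mean of their log2(FPKM + 1), not the sum. Whether that mean also parts the genotypes at each stage was not checked. If it does, the fit can hardly separate it from genotype, and a call lost in that fit is taken as no result about the gene. Ldh, lactate dehydrogenase, lost its call in that fit at 12-16 h (log2 fold change -1.51, limma adjusted p = 0.0976) and kept it at 8-12 h and 16-20 h. Replicate 2 of the 12-16 h controls also had the lowest level of all 5 embryo members in its group, so 12-16 h results are given with and without it.

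In larvae, Mdh1 was the 1 member called different between genotypes, and it was lower in mutants. Mdh1 (FBgn0262782, chromosome 2L, 10393774 to 10396332, minus strand, BDGP6) encodes the cytosolic malate dehydrogenase. Its level was 113.1, 134.3 and 123.8 FPKM in mutant larvae, against 283.2, 252.4 and 209.7 FPKM in control larvae. All 3 mutant values lay below all 3 control values, with a wide gap between the groups. The mean was 123.7 ± 10.6 FPKM in mutants and 248.4 ± 36.9 FPKM in controls (SD, n = 3 each), a ratio of 0.498. Mdh1 fell by 0.99 on the log2 scale (SE 0.14, limma adjusted p = 0.0142). The share of all tested larval genes called was 9.4% (5.24% called lower), and 1 of the 9 members was called. The call was lost, with nearly the same size, without control replicate 1 (log2 fold change -0.89, limma adjusted p = 0.0510), without control replicate 2 (-0.98, limma adjusted p = 0.0597) and without mutant replicate 3 (-0.99, limma adjusted p = 0.0513).

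The mitochondrial malate dehydrogenase, Mdh2 (FBgn0262559, chromosome 3R, 18226396 to 18228718, plus strand), had 235.1, 314.3 and 266.4 FPKM in mutant larvae, against 380.4, 361.8 and 251.7 FPKM in control larvae. The groups overlapped, because control replicate 3 lay between the mutant values. The log2 fold change was -0.27 (95% interval -0.75 to 0.21, limma adjusted p = 0.421), so neither a moderate fall nor a small rise was excluded by the interval. The ratio of Mdh1 to Mdh2 within each sample, which does not depend on how the library was scaled, was 0.481, 0.427 and 0.465 in mutant larvae, against 0.745, 0.698 and 0.833 in control larvae. The ratios did not overlap. They averaged 0.458 ± 0.0276 in mutants and 0.758 ± 0.0688 in controls (SD, n = 3 each), a log2 difference of -0.73. A two-sided exact permutation test gave p = 0.1, the smallest that 3 against 3 samples allow (0.233 after Benjamini-Hochberg adjustment over the 7 ratio tests), so this design could not call it.

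**Figure D1:**
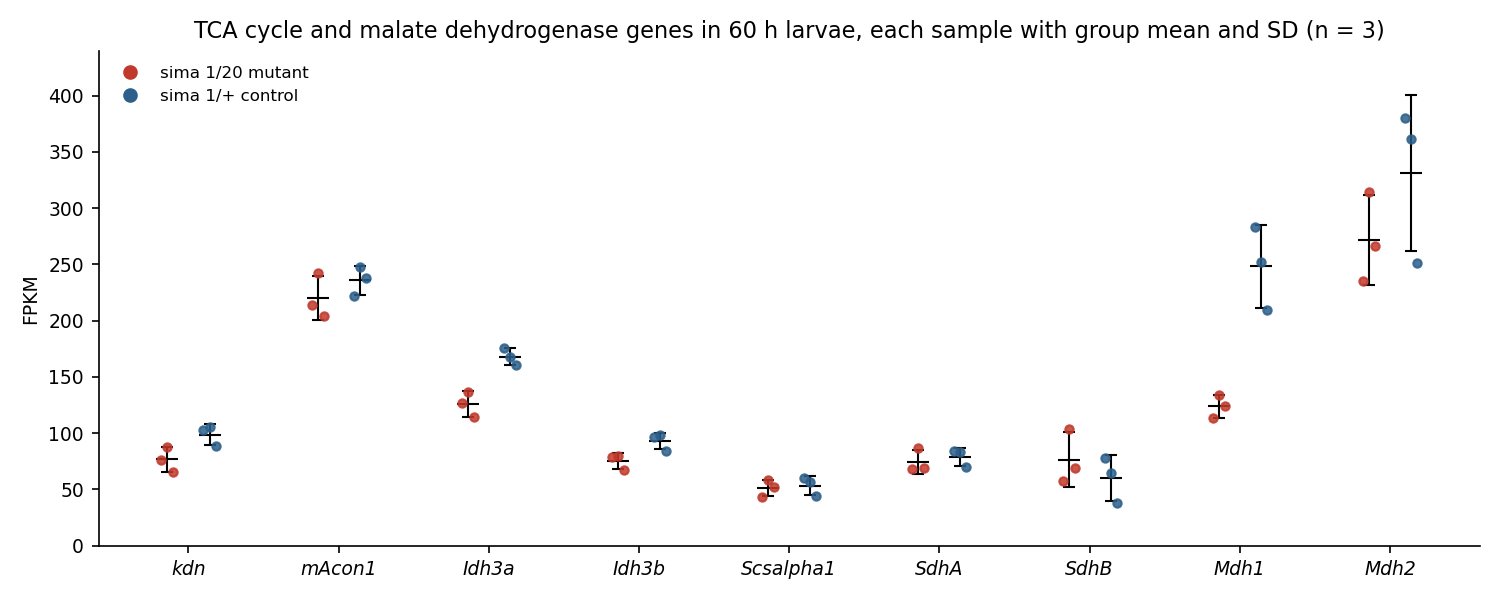
FPKM of the 9 members in each 60 h larval sample, sima 1/20 mutants left of sima 1/+ controls, with group mean and SD (n = 3 each). Mdh1 shows the clearest gap, 113.1 to 134.3 FPKM in mutants below 209.7 to 283.2 FPKM in controls, while the groups overlap for mAcon1, Scsalpha1, SdhA, SdhB and Mdh2.

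None of the 4 members that serve the first steps of the cycle passed the test in larvae, though the values of 3 lay wholly below the controls. kdn (FBgn0261955, chromosome X, 6350629 to 6361323, plus strand) encodes citrate synthase, which joins acetyl-CoA to oxaloacetate. It had 76.5, 88.0 and 65.8 FPKM in mutant larvae, against 102.8, 105.1 and 88.4 FPKM in control larvae. The groups just failed to overlap, and the log2 fold change was -0.37 (95% interval -0.69 to -0.04, limma adjusted p = 0.144). mAcon1 (FBgn0010100, chromosome 2L, 21168570 to 21173185, plus strand) encodes mitochondrial aconitase, which turns citrate into isocitrate. Its 214.2, 242.4 and 203.9 FPKM in mutant larvae overlapped the 221.9, 247.7 and 237.7 FPKM of control larvae, with a log2 fold change of -0.10 (95% interval -0.36 to 0.16, limma adjusted p = 0.592).

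Idh3a and Idh3b encode subunits of the NAD-dependent isocitrate dehydrogenase of the mitochondrion, which makes 2-oxoglutarate. Idh3a (FBgn0027291, chromosome X, 19518428 to 19521810, minus strand) had 127.1, 136.6 and 114.1 FPKM in mutant larvae, against 175.6, 167.8 and 160.9 FPKM in control larvae. The groups were well apart, yet the log2 fold change of -0.42 (95% interval -0.66 to -0.17) missed the threshold at a limma adjusted p of 0.0570. Idh3b (FBgn0038922, chromosome 3R, 22016391 to 22019382, minus strand) had 78.6, 79.8 and 66.9 FPKM in mutant larvae, against 96.9, 98.0 and 84.5 FPKM in control larvae. It too did not overlap between genotypes (log2 fold change -0.31, 95% interval -0.58 to -0.04, limma adjusted p = 0.137). The ratio of Idh3a to Idh3b averaged 1.68 ± 0.0527 in mutant larvae and 1.81 ± 0.0957 in control larvae (SD, n = 3 each; two-sided exact permutation p = 0.1, 0.233 after adjustment), and the nearest values of the groups both rounded to 1.71. So kdn, Idh3a, Idh3b and Mdh1 were the 4 of 9 members whose larval values did not overlap, all lower in mutants. Over all tested larval genes 34.8% did not overlap, and 20.1% of the tested genes did so with the mutants lower. At an unadjusted p under 0.05, 4 of the 9 members passed, beside 2382 of all 8619 genes.

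The later steps of the cycle showed overlapping larval groups. Scsalpha1 (FBgn0004888, chromosome 3L, 3814211 to 3818383, plus strand) encodes the alpha subunit of succinyl-CoA synthetase, which releases succinate. It had 43.7, 58.5 and 51.9 FPKM in mutant larvae, against 60.2, 56.3 and 43.9 FPKM in control larvae (log2 fold change -0.05, 95% interval -0.44 to 0.33, limma adjusted p = 0.859). SdhA and SdhB encode the flavoprotein and iron-sulfur subunits of succinate dehydrogenase, which oxidises succinate to fumarate and is also complex II of the respiratory chain. SdhA (FBgn0261439, chromosome 2R, 19391863 to 19395971, minus strand) had 68.4, 87.0 and 68.9 FPKM in mutant larvae, against 83.8, 83.3 and 70.0 FPKM in control larvae (log2 fold change -0.08, 95% interval -0.41 to 0.24, limma adjusted p = 0.729). SdhB (FBgn0014028, chromosome 2R, 6807626 to 6809172, plus strand) was the most variable member, with 57.2, 103.6 and 68.8 FPKM in mutant larvae, against 77.9, 64.7 and 37.7 FPKM in control larvae. Its log2 fold change of 0.36 had an interval of -0.43 to 1.15 (limma adjusted p = 0.515), so a 2-fold difference was not excluded for SdhB. Exons of mAcon1, SdhA and SdhB overlap genes on the opposite strand (CG43345 and CG43346, CG11257, and CG15237). The libraries kept strand, but whether the counting used it is not given in the sources used here, so reads of these partners cannot be told apart from the 3 members.

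The place of Mdh1 in the order of levels differed between the larval groups. In mutant larvae the order of means was Mdh2, mAcon1, Idh3a, Mdh1, kdn, SdhB, Idh3b, SdhA and Scsalpha1, with Mdh1 at 123.7 FPKM beside Idh3a at 125.9 FPKM. In control larvae it was Mdh2, Mdh1, mAcon1, Idh3a, kdn, Idh3b, SdhA, SdhB and Scsalpha1, with Mdh1 at 248.4 FPKM next to Mdh2. Neighbours whose sample ranges overlapped cannot be ordered. In mutants these were Mdh2 with mAcon1, Idh3a with Mdh1, and each neighbouring pair from kdn down to SdhA. In controls they were Mdh2 with Mdh1, Mdh1 with mAcon1, kdn with Idh3b, SdhA with SdhB, and SdhB with Scsalpha1.

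Other markers moved with the larval genotypes. The summed FPKM of 10 muscle protein genes was 4246 to 6207 in mutant larvae and 8617 to 9575 in control larvae. Of those genes 4 were called lower and 0 higher, beside 5.24% of all tested larval genes called lower. Their median log2 fold change was -0.70, and none was at 0 FPKM in either genotype. Larval fat body protein genes summed to 791 to 2881 FPKM over 7 genes in mutant larvae and 3666 to 5440 FPKM in control larvae, with none of the 5 tested genes called (1 at an unadjusted p under 0.05). Lsp1alpha, Lsp1beta and Lsp1gamma had log2 fold changes of -2.25, -2.26 and -2.17, while Fbp2 stood at 1.48 and apolpp at 0.13. The part of these markers in the members' values was not tested. In whole animals, fewer cells of a type and less RNA per cell cannot be told apart.

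**Figure D2:**
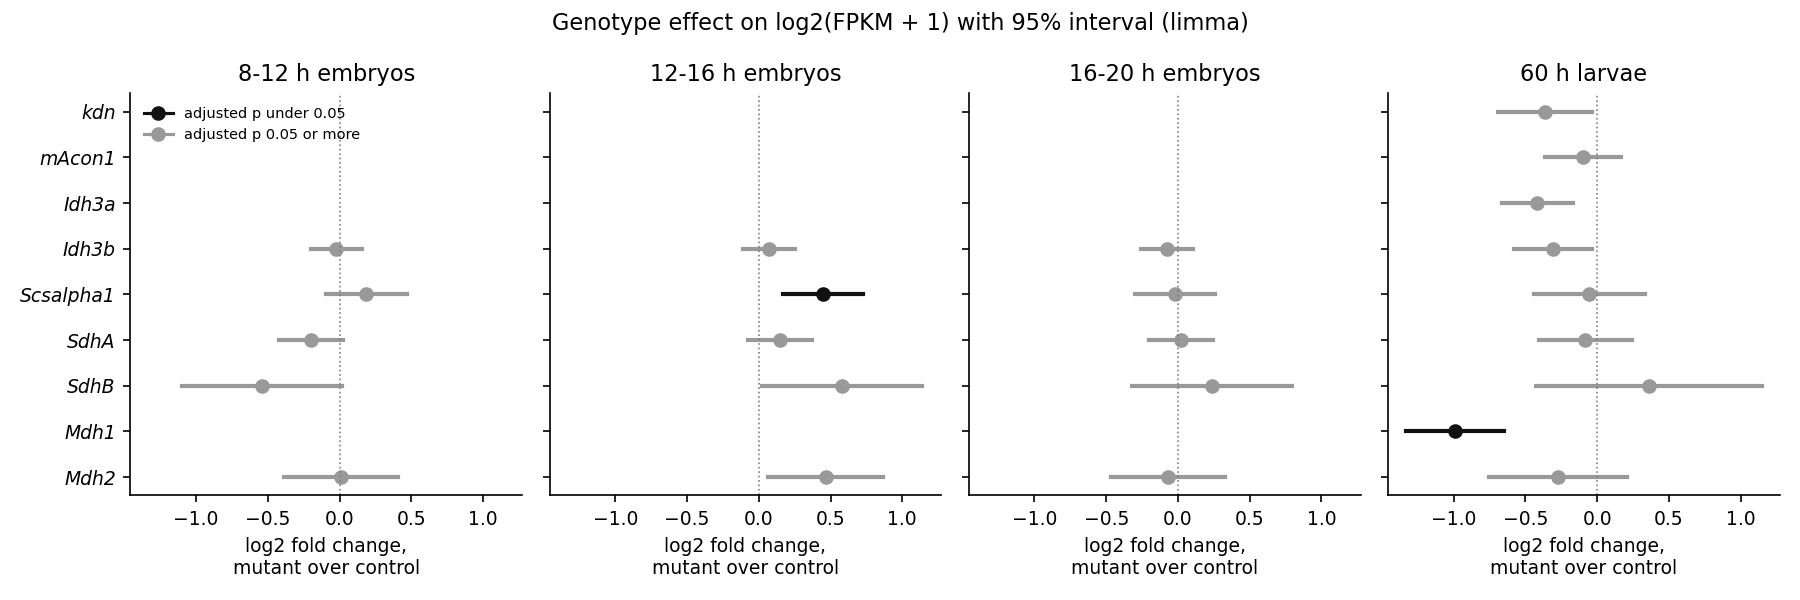
Mutant over control log2 fold change on the log2(FPKM + 1) scale with its 95% interval from limma, for each member measured at each stage. Black points passed the adjusted p threshold, which were Scsalpha1 at 12-16 h (0.45) and Mdh1 in larvae (-0.99).

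In embryos the dominant pattern over the members was a rise with age in both genotypes. Mdh2 rose most. It had 9.70, 12.6 and 7.47 FPKM in 8-12 h mutants, 49.1, 57.1 and 52.8 FPKM in 12-16 h mutants, and 153.9, 173.0 and 131.1 FPKM in 16-20 h mutants. The controls had 8.99, 10.2 and 9.83 FPKM at 8-12 h, 41.4, 27.3 and 48.7 FPKM at 12-16 h, and 145.4, 164.0 and 169.1 FPKM at 16-20 h. Within each genotype every sample lay above every sample of the stage before. From 8-12 h to 16-20 h the mean of Mdh2 rose 15.4-fold in mutants and 16.5-fold in controls, and Mdh2 moved from the lowest to the highest of the 5 members.

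The other 4 members rose less. From 8-12 h to 16-20 h the ratio of means was 3.10 in mutants and 3.20 in controls for Idh3b, 2.37 in mutants and 2.76 in controls for Scsalpha1, 2.44 in mutants and 2.09 in controls for SdhA, and 4.09 in mutants and 2.32 in controls for SdhB. Between 12-16 h and 16-20 h all 5 members were called higher in both genotypes. The log2 change over that step ran from 0.51 for SdhA to 1.50 for Mdh2 in mutants and from 0.63 for SdhA to 2.04 for Mdh2 in controls. Over all genes 63.9% were called in mutants and 67.8% in controls over this step, 35.8% and 38% of genes as higher, with median log2 changes of 0.0187 and 0.0473. Summed muscle markers moved the same way, with 3911 to 4436 FPKM in 12-16 h mutants and 7839 to 8941 FPKM in 16-20 h mutants, and their part in the members' rise was not tested.

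**Figure D3:**
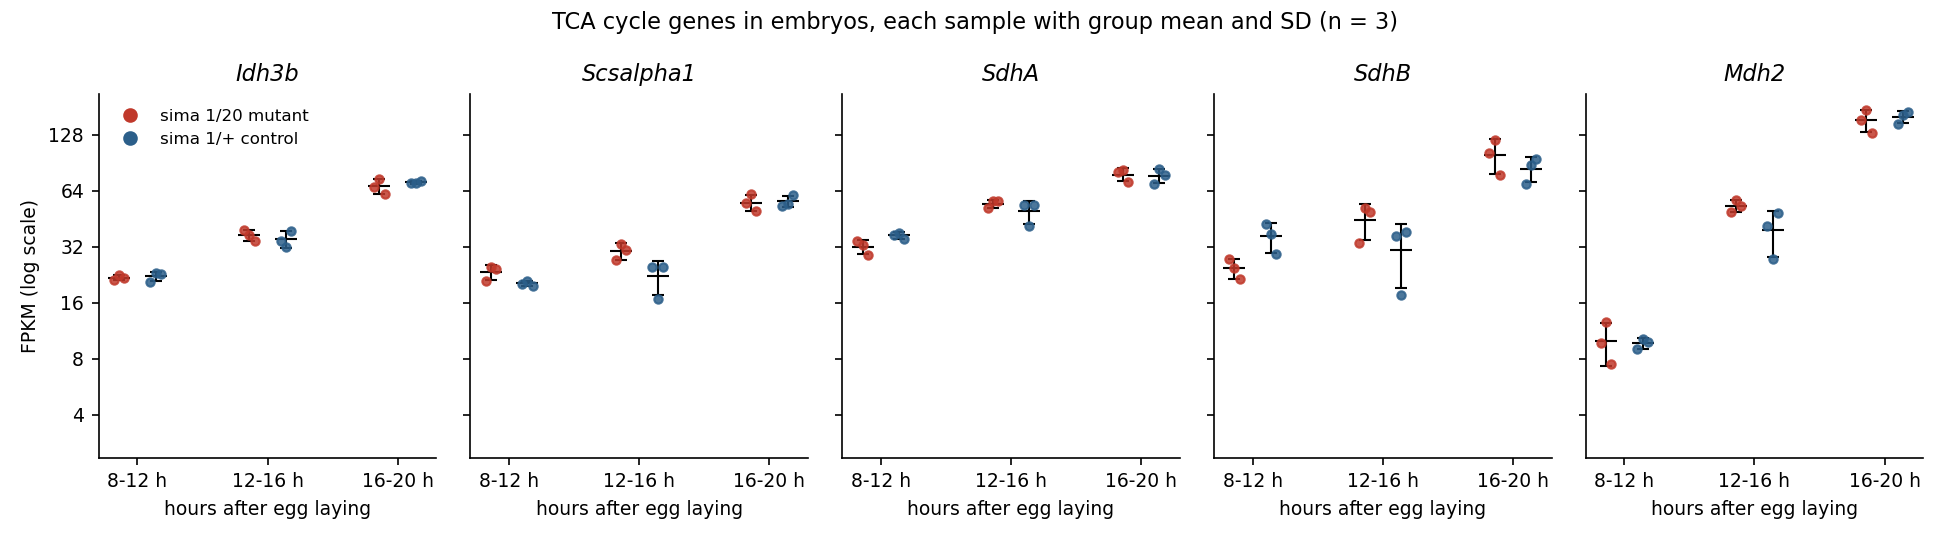
FPKM (log scale) of the 5 members measured in embryos, in each sample at 8-12 h, 12-16 h and 16-20 h, sima 1/20 mutants left of sima 1/+ controls, with group mean and SD (n = 3 each). Mdh2 starts lowest, at 7.47 to 12.6 FPKM in mutants and 8.99 to 10.2 FPKM in controls, and ends highest; 1 control sample at 12-16 h is the lowest of its group for all 5 genes.

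The earlier step was less even. Between 8-12 h and 12-16 h, 5 of 5 members were called higher in mutants and 3 of 5 in controls, beside 64.9% of all genes called in mutants and 68.1% in controls (35.8% and 36% of genes as higher). Idh3b rose by a log2 change of 0.73 in mutants (limma adjusted p = 1.89e-06) and 0.63 in controls (limma adjusted p = 8.26e-06). SdhA rose by 0.76 in mutants (limma adjusted p = 1.33e-05) and 0.41 in controls (limma adjusted p = 0.00292). These steps passed the test in both genotypes. Scsalpha1 rose by 0.36 in mutants (limma adjusted p = 0.0245), and its change in controls was 0.10 (95% interval -0.18 to 0.38, limma adjusted p = 0.514). SdhB rose by 0.83 in mutants (limma adjusted p = 0.0115), and its change in controls was -0.29 (95% interval -0.85 to 0.26, limma adjusted p = 0.336).

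These 2 members were the ones whose early change in controls turned on replicate 2 of the 12-16 h controls. Without it the control change was 0.28 for Scsalpha1 (limma adjusted p = 0.0279, called) and 0.06 for SdhB (limma adjusted p = 0.828). The Scsalpha1 call in mutants was lost without 8-12 h mutant replicate 1 (0.29, limma adjusted p = 0.0967), without 12-16 h mutant replicate 2 (0.30, limma adjusted p = 0.0884) or without 12-16 h mutant replicate 3 (0.35, limma adjusted p = 0.0572). The stage steps also depended on scaling. Median centring shifts all log2 levels of a library by the same amount. Quantile normalization instead reshapes the distribution of levels in each library, so its shift of the median need not be that of a given gene. Quantile normalization lowered the median change of all genes by 0.25 and 0.21 over the 2 steps in mutants and by 0.18 and 0.30 in controls. With it the late change of SdhA was 0.04 in mutants (limma adjusted p = 0.782) and 0.01 in controls (limma adjusted p = 0.946), and that of SdhB in mutants was 0.58 (limma adjusted p = 0.0583). With median centring Scsalpha1 in mutants changed by 0.14 over the early step (limma adjusted p = 0.324), and SdhA in controls by 0.24 (limma adjusted p = 0.0578). Mdh2 and Idh3b were called higher over both steps in both genotypes under both scalings.

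Between genotypes, embryos at 8-12 h gave no call among the members, beside 5.63% of all tested genes. SdhB had 27.4, 24.6 and 21.4 FPKM in 8-12 h mutants, against 42.2, 37.4 and 29.3 FPKM in 8-12 h controls. The groups did not overlap, with the mutants lower, and the log2 fold change was -0.54 (95% interval -1.10 to 0.01, limma adjusted p = 0.234). SdhA likewise did not overlap, at 34.3, 32.8 and 28.8 FPKM in 8-12 h mutants, against 36.9, 38.1 and 35.2 FPKM in 8-12 h controls (log2 fold change -0.20, 95% interval -0.42 to 0.03, limma adjusted p = 0.281). Over all tested genes 30% did not overlap at this stage, 14.7% of the tested genes with the mutants lower. Idh3b had 21.2, 22.5 and 21.6 FPKM in mutants and 20.7, 23.0 and 22.7 FPKM in controls (log2 fold change -0.02, 95% interval -0.20 to 0.16). These values were interleaved. Scsalpha1 had 21.0, 24.9 and 24.2 FPKM in mutants and 20.2, 21.0 and 19.8 FPKM in controls (log2 fold change 0.19, 95% interval -0.09 to 0.47). Its lowest mutant and highest control nearly met at 21.0 FPKM, and Mdh2, with the values given above, overlapped as well (0.0075, 95% interval -0.39 to 0.41). By limma, 0 of the 5 members passed an unadjusted p under 0.05 either, beside 1541 of all 6784 genes. With the maternal RNA covariate none was called, and SdhB stood at -0.23 (limma adjusted p = 0.782), SdhA at -0.06 (0.876), Mdh2 at 0.28 (0.531), Scsalpha1 at 0.25 (0.495) and Idh3b at 0.03 (0.927).

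At 12-16 h all 5 log2 fold changes were above 0, beside 3520 of all 6784 genes, and 1 member was called. The 5 are not separate observations, since control replicate 2 was the lowest of its group for each of them. Scsalpha1 had 27.1, 33.2 and 30.6 FPKM in 12-16 h mutants, against 25.0, 16.8 and 24.9 FPKM in 12-16 h controls. The lowest mutant value lay just above the highest control value. The log2 fold change was 0.45 (SE 0.13, limma adjusted p = 0.0173), a ratio of means of 1.36. Of all genes 31.7% were called at this stage, 18% as higher, so 1 of 5 members called higher is near the background share. The Scsalpha1 call was lost without control replicate 2 (0.27, limma adjusted p = 0.0735) and without mutant replicate 2 (0.38, limma adjusted p = 0.0795), and it reached an adjusted p of 0.260 in a limma fit with the maternal RNA level as a covariate, where its value was 0.68.

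Mdh2 had 49.1, 57.1 and 52.8 FPKM in 12-16 h mutants, against 41.4, 27.3 and 48.7 FPKM in 12-16 h controls. These values did not overlap, as for Scsalpha1 and for 40.9% of all tested genes (21.1% with the mutants higher), and the log2 fold change was 0.47 (95% interval 0.07 to 0.86, limma adjusted p = 0.0694). SdhB had 33.5, 51.6 and 49.1 FPKM in 12-16 h mutants, against 36.5, 17.5 and 38.4 FPKM in 12-16 h controls. Its groups overlapped, with the lowest value in control replicate 2, and the log2 fold change was 0.58 (95% interval 0.02 to 1.13, limma adjusted p = 0.103). Without that replicate the log2 fold changes were 0.23 for Mdh2 (limma adjusted p = 0.317) and 0.23 for SdhB (limma adjusted p = 0.459). Without control replicate 3 both were called, at 0.64 for Mdh2 (limma adjusted p = 0.0203) and 0.77 for SdhB (limma adjusted p = 0.0488). With the maternal RNA level as a covariate the values were larger and not called, at 1.46 for Mdh2 (limma adjusted p = 0.0721) and 1.73 for SdhB (limma adjusted p = 0.125). That fit is not taken to decide here. The maternal RNA sums did not overlap between genotypes, and 5 of the 7 maternal RNAs tested were called higher in 12-16 h mutants.

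SdhA and Idh3b were closest between genotypes at 12-16 h. SdhA had 51.5, 56.1 and 56.0 FPKM in mutants, against 53.7, 41.2 and 53.5 FPKM in controls (log2 fold change 0.15, 95% interval -0.08 to 0.37, limma adjusted p = 0.302). Idh3b had 39.3, 36.9 and 34.2 FPKM in mutants, against 34.3, 31.8 and 39.0 FPKM in controls (log2 fold change 0.07, 95% interval -0.11 to 0.25, limma adjusted p = 0.530). Both overlapped. Without control replicate 2 the log2 fold changes were 0.02 for SdhA and 0.01 for Idh3b, and with the maternal RNA covariate they were 0.68 for SdhA (limma adjusted p = 0.109) and 0.27 for Idh3b (limma adjusted p = 0.492). With quantile normalization, which lowered the median fold change of all genes by 0.11 at this stage, Idh3b stood at -0.07.

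At 16-20 h the genotypes overlapped for all 5 members and none was called, beside 15.8% of all genes called and 40.9% that did not overlap. Mdh2 had a log2 fold change of -0.07 (95% interval -0.47 to 0.33) and Idh3b of -0.07 (95% interval -0.25 to 0.11). Idh3b had 66.8, 73.9 and 61.7 FPKM in 16-20 h mutants, against 70.4, 70.1 and 72.3 FPKM in 16-20 h controls, with the mutants the more spread. The 3 genes that make or use succinate overlapped too. Scsalpha1 had 54.9, 61.2 and 49.7 FPKM in mutants, against 53.1, 54.5 and 60.6 FPKM in controls (log2 fold change -0.02, 95% interval -0.30 to 0.26). SdhA had 80.2, 82.9 and 71.0 FPKM in mutants, against 69.9, 83.7 and 77.2 FPKM in controls (0.02, 95% interval -0.20 to 0.25). SdhB was again the widest, at 102.1, 120.2 and 78.1 FPKM in mutants, against 69.4, 88.2 and 94.9 FPKM in controls (0.24, 95% interval -0.32 to 0.79). By limma, 0 of the 5 members passed an unadjusted p under 0.05, beside 2003 of all 6784 genes. With the maternal RNA covariate none was called, and SdhB stood at 0.86 (limma adjusted p = 0.239), Mdh2 at 0.47 (0.323), SdhA at 0.31 (0.253), Scsalpha1 at 0.10 (0.830) and Idh3b at 0.03 (0.931).

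The difference in genotype effect between the embryo stages was tested directly with limma's moderated F test, in which 14.6% of all genes were called. None of the 5 members was called, with adjusted p of 0.0990 for SdhB, 0.179 for Scsalpha1, 0.219 for SdhA, 0.260 for Mdh2 and 0.599 for Idh3b (1 of 5 at an unadjusted p under 0.05, beside 2284 of all 6784 genes). SdhB had the widest swing, since its genotype effect at 12-16 h exceeded that at 8-12 h by 1.12 on the log2 scale (limma adjusted p = 0.0907).

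The balance of the succinate dehydrogenase subunits also varied from sample to sample. The ratio of SdhA to SdhB was 1.25, 1.33 and 1.34 in 8-12 h mutants, against 0.874, 1.02 and 1.20 in 8-12 h controls, without overlap (two-sided exact permutation p = 0.1, the smallest possible). At 12-16 h it averaged 1.25 ± 0.245 in mutants and 1.74 ± 0.535 in controls, at 16-20 h 0.795 ± 0.110 in mutants and 0.923 ± 0.0992 in controls, and in larvae 1.01 ± 0.177 in mutants and 1.41 ± 0.405 in controls (SD, n = 3 each). At each of these later stages the groups overlapped, with two-sided exact permutation p of 0.3, 0.2 and 0.2. The 12-16 h control mean leaned on replicate 2. The ratios were 1.47, 2.36 and 1.40 in those controls, replicates in order, beside 1.54, 1.09 and 1.14 in 12-16 h mutants. Over the 3 embryo stages together, with labels exchanged within a stage, the log2 ratio was 0.10 lower in mutants (two-sided exact permutation p = 0.489 over 8000 arrangements).

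**Figure D4:**
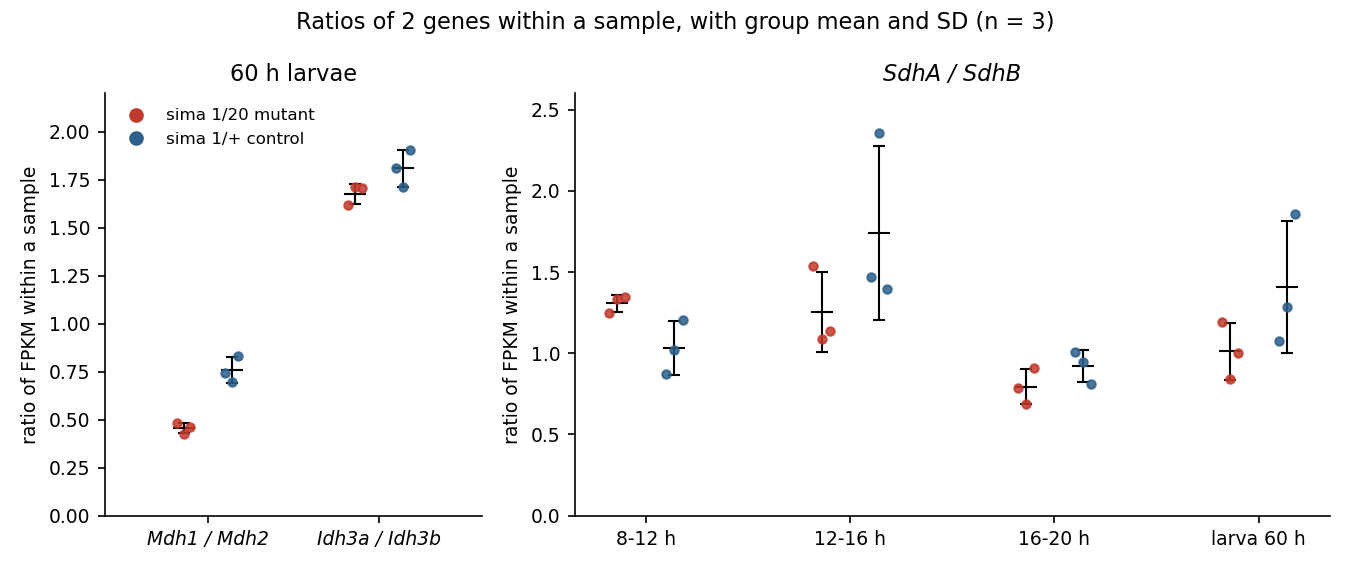
Ratio of FPKM between 2 members within each sample, sima 1/20 mutants left of sima 1/+ controls, with group mean and SD (n = 3 each): Mdh1 to Mdh2 and Idh3a to Idh3b in larvae, and SdhA to SdhB at each stage. The Mdh1 to Mdh2 ratio lies at 0.427 to 0.481 in mutants, below 0.698 to 0.833 in controls.

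Across the 18 embryo samples the 5 members kept close company, with Pearson's r of log2(FPKM + 1) between pairs from 0.85 (SdhB with Mdh2) to 0.98 (Idh3b with Mdh2). These are descriptions over samples that share 3 stages, which set most of the variation. Among 4201 other genes, those most like the members' mean profile were blw (r = 0.998), ATPsynB (0.997), ND-39, ATPsyngamma and COX7A (each 0.994). blw, ATPsynB and ATPsyngamma encode subunits of the mitochondrial ATP synthase, ND-39 a subunit of complex I and COX7A one of cytochrome c oxidase. The median r of all genes compared was -0.20 and the 95th percentile 0.97, so high values were common.

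Embryo and larval tables were normalized separately, so levels across them are only set side by side. Mdh2 averaged 271.9 FPKM in mutant larvae beside 152.7 FPKM in 16-20 h mutants, and 331.3 FPKM in control larvae beside 159.5 FPKM in 16-20 h controls. Idh3b averaged 75.1 FPKM in mutant larvae beside 67.5 FPKM in 16-20 h mutants, and 93.1 FPKM in control larvae beside 70.9 FPKM in 16-20 h controls. Scsalpha1 and SdhA stood within a few FPKM of their late embryonic level in both genotypes. SdhB averaged 76.5 beside 100.1 FPKM in mutants and 60.1 beside 84.2 FPKM in controls.

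The remaining genes of the cycle are described from a list of 10, of which 8 could be tested in embryos and 9 in larvae. Over all tested genes 5.63% were called at 8-12 h, 31.7% at 12-16 h, 15.8% at 16-20 h and 9.4% in larvae. At 8-12 h 1 of 8 was called higher and 0 lower (median log2 fold change 0.0081, beside 0.0147 over all genes). At 12-16 h 1 was higher and 0 lower (median 0.17, beside 0.0169), and at 16-20 h 0 were higher and 1 lower (median -0.09, beside -0.0254). In larvae 0 of 9 were higher and 1 lower (median -0.21, beside -0.0291 over all genes and -0.27 over the 9 members). Ogdh, the dehydrogenase subunit of the 2-oxoglutarate dehydrogenase complex, rose at 8-12 h (11.9 ± 1.48 FPKM in mutants, 8.68 ± 0.217 FPKM in controls, SD, n = 3 each), by 0.41 on the log2 scale (limma adjusted p = 0.0148). It also rose at 12-16 h, by 0.37 (limma adjusted p = 0.00519), a call that was lost with the maternal RNA level as a covariate (0.12, limma adjusted p = 0.798) and in a fit of that stage alone (limma adjusted p = 0.0662). ScsbetaG, the GDP-forming beta subunit that pairs with Scsalpha1, fell at 16-20 h to 38.3 FPKM in mutants, against 48.0 FPKM in controls (-0.32 on the log2 scale, limma adjusted p = 0.0118). ScsbetaG in larvae had 75.3, 73.9 and 83.1 FPKM in mutants, against 103.6, 103.3 and 105.1 FPKM in controls, and it fell by 0.42 (limma adjusted p = 0.0338). The Ogdh call at 8-12 h was lost without control replicate 1 (limma adjusted p = 0.0637), control replicate 2 (0.0515), mutant replicate 2 (0.0555) or mutant replicate 3 (0.0618), at log2 fold changes of 0.33 to 0.42, and with the maternal RNA covariate (0.34, limma adjusted p = 0.0925) or in a fit of that stage alone (limma adjusted p = 0.127). The ScsbetaG call at 16-20 h was lost with that covariate (-0.18, limma adjusted p = 0.413) and with quantile normalization (-0.23, limma adjusted p = 0.0881), as well as without control replicate 3 (-0.30, limma adjusted p = 0.0501) or mutant replicate 3 (-0.24, limma adjusted p = 0.0651), and in larvae without any 1 of the 6 samples, at log2 fold changes of -0.47 to -0.39 (limma adjusted p 0.0595 to 0.114). Over the 14 alternatives run in larvae the ScsbetaG call held in 6. Idh3g, a further subunit of the isocitrate dehydrogenase, stood at -0.35 in larvae (limma adjusted p = 0.0736).

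Near copies of TCA cycle genes, 9 in all and among them 3 copies of the fumarase gene Fum1, had low levels where they were measured. All 9 were measured in larvae and 6 in embryos, and SdhBL, Fum2 and Fum4 were not analysed here in embryos. Fum2 alone could be tested, in larvae, at 0.976 to 3.00 FPKM over all samples (log2 fold change 0.28, limma adjusted p = 0.523). The other paralogs reached at most 1.14 FPKM (SdhBL), and mAcon2, the second aconitase gene, at most 0.0612 FPKM. Scsalpha2 and SdhAL reached at most 0.754 and 0.106 FPKM.

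Enzymes that convert malate, aspartate, citrate or isocitrate, listed with the carrier aralar1, moved in both directions in larvae. Of 7 tested there, 1 was called higher and 2 lower (median log2 fold change -0.19). Over all tested larval genes 9.4% were called, 5.24% as lower, with a median of -0.0291. Idh, the cytosolic NADP-dependent isocitrate dehydrogenase, had 90.6, 103.5 and 85.2 FPKM in mutant larvae, against 153.8, 145.8 and 153.7 FPKM in control larvae, and it fell by 0.70 on the log2 scale (limma adjusted p = 0.0153). Got1, an aspartate aminotransferase that uses oxaloacetate, had 89.7, 103.4 and 91.8 FPKM in mutant larvae, against 136.1, 144.1 and 129.7 FPKM in control larvae, and it fell by 0.52 (limma adjusted p = 0.0286). Both sets of values were well apart. Men, the malic enzyme that turns malate into pyruvate, rose, with 61.4, 63.5 and 63.1 FPKM in mutant larvae, against 47.0, 46.6 and 39.2 FPKM in control larvae (log2 fold change 0.50, limma adjusted p = 0.0318). The calls of Got1 and Men were lost without any 1 of the 6 larval samples, with log2 fold changes of -0.58 to -0.48 for Got1 (limma adjusted p 0.0537 to 0.102) and 0.41 to 0.54 for Men (limma adjusted p 0.0541 to 0.0989). That of Idh was lost without control replicate 1 (-0.68, limma adjusted p = 0.0649), control replicate 2 (-0.72, limma adjusted p = 0.0606) or mutant replicate 3 (-0.64, limma adjusted p = 0.0513).

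In embryos 6 genes of that list were tested. Over all tested genes 5.63% were called at 8-12 h, 31.7% at 12-16 h (18% as higher) and 15.8% at 16-20 h. At 8-12 h 0 were called and 0 passed an unadjusted p under 0.05 by limma (median log2 fold change -0.0011), beside 1541 of all 6784 genes at that unadjusted threshold. At 12-16 h aralar1, the aspartate-glutamate carrier, was called higher (0.32, limma adjusted p = 0.0105). Called lower at that stage were ATPCL, the ATP citrate lyase (-0.38, limma adjusted p = 0.0152), and Got1 (-0.29, limma adjusted p = 0.0380). At 16-20 h Got1 was called lower (-0.47, limma adjusted p = 0.00633), with 37.9 ± 3.09 FPKM in mutants and 52.6 ± 0.970 FPKM in controls (SD, n = 3 each), and no other gene of the list was called. Over the 16 alternatives run at 12-16 h, the call held in 12 for aralar1, 12 for ATPCL and 10 for Got1. With 1 sample left out, that of aralar1 was lost without control replicate 1 (0.26, limma adjusted p = 0.0508). That of ATPCL was lost without control replicate 1 (-0.33, limma adjusted p = 0.0627) or mutant replicate 2 (-0.29, limma adjusted p = 0.0842). That of Got1 was lost without control replicate 1 (-0.27), control replicate 3 (-0.22), mutant replicate 2 (-0.26) or mutant replicate 3 (-0.29), with limma adjusted p of 0.0706 to 0.133. With the maternal RNA covariate the embryo calls of this list were lost, at 0.54 for aralar1 (limma adjusted p = 0.157), 0.10 for ATPCL (0.864) and -0.12 for Got1 (0.839) at 12-16 h, and at -0.37 for Got1 at 16-20 h (0.233).

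Set beside the members, genes of glycolysis, a list chosen with earlier results of these data known, moved much further. Of 9 glycolytic genes tested in embryos, 7 were called lower at 8-12 h, 8 lower and 1 higher at 12-16 h, and 8 lower at 16-20 h, with median log2 fold changes of -0.99, -1.26 and -1.67. In larvae 11 of 13 were called lower (median -1.84). Over all tested genes 5.63%, 31.7% and 15.8% were called at the embryo stages in order, and 9.4% in larvae. Ldh, lactate dehydrogenase, averaged 4.88 ± 1.18 FPKM in mutant larvae and 62.2 ± 8.99 FPKM in control larvae (SD, n = 3 each; log2 fold change -3.43, limma adjusted p = 0.000366). The largest fall among the members, that of Mdh1 at 0.99, was smaller than the median of the glycolytic list in larvae.

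**Figure D5:**
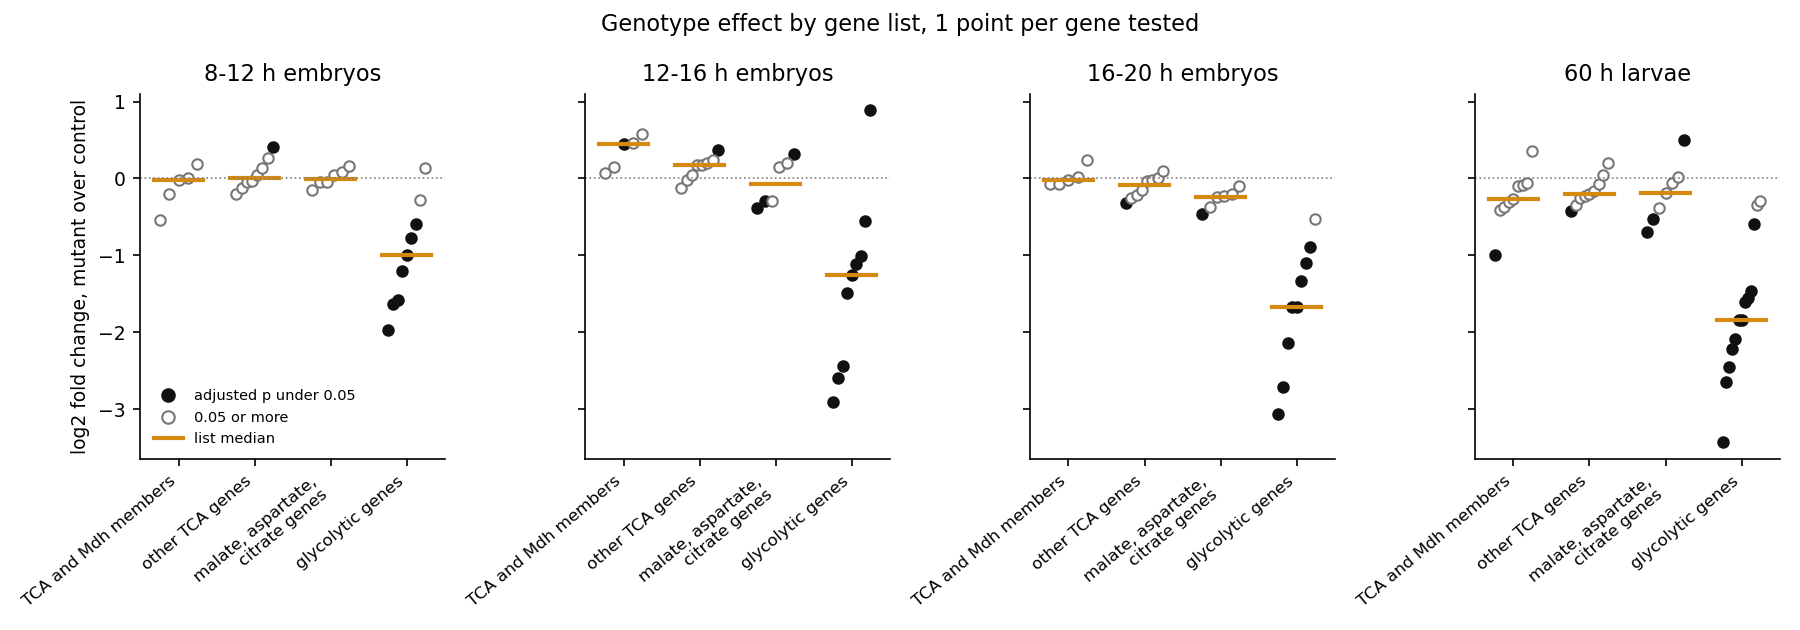
Mutant over control log2 fold change of each tested gene by list and stage, filled where the limma adjusted p was under 0.05, with the list's median as a bar. The members' medians run from -0.27 to 0.45 and those of the glycolytic list from -1.84 to -0.99.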

How the data were processed

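Per the labels' protocols, RNA from whole animals was purified on Qiagen columns and 2 ug was made into stranded, poly(A)-selected TruSeq libraries. Embryos and larvae each have a table of FPKM values, as the authors deposited them, with every replicate in a column of its own; the submitters' processing notes name BDGP6, featureCounts and DESeq2 without their roles. The embryo table breaks off in its last row, which was left out, and holds the first 14336 rows of the larval order. Symbols and positions came from the Ensembl BDGP6 annotation.

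Levels were taken as log2(FPKM + 1). A gene was kept where 3 or more samples reached 1 FPKM. R 4.3.3 ran limma 3.58.1 (lmFit, then eBayes with trend): a model of the 6 embryo group means used all 18 embryo samples, and the 6 larval samples had a model of their own. P-values were adjusted by Benjamini and Hochberg's method and called under 0.05. Log fold changes understate changes of low genes. Ratios were tested by exact permutation. The fit was tested on simulated data. Depth was estimated from the FPKM steps: of the low values checked, 99.8% (8942 in embryos) and 98.9% (2002 in larvae) came out as whole fragments within 0.01. Between replicates of a group Pearson's r across genes was 0.980 to 0.995, and none agreed within sampling noise.

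Members and lists were chosen with earlier results of these data known. Named genes are the 9 members, up to 3 called genes per list and comparison with the largest fold change, Ldh, and the 5 genes most like the members among genes with a mean of at least 5 FPKM. Idh3g, SdhBL, Fum2, mAcon2, Scsalpha2 and SdhAL were named after their values were seen. Alternatives were a pseudocount of 0.1, a filter at 5 FPKM or none, median centring, quantile normalization, no trend, a replicate block, single-stage fits, a maternal RNA covariate and leaving out each sample; limma-voom on estimated fragments and a size limit of 1 on the absolute log2 fold change were added after seeing the data.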

Additional observations from a re-analysis of the deposited data

Results flagged for a closer look

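By limma's moderated F test the genotype effect differed between the embryo stages for 991 of the 6784 genes tested (14.6%). Of these, 4 genes outside the 9 members are described here, from the lists of TCA, malate and aspartate genes and Ldh. For ScsbetaG (adjusted p = 0.0331) the log2 fold change of mutants over controls was 0.13, -0.03 and -0.32 at 8-12 h, 12-16 h and 16-20 h. For Got1 (adjusted p = 0.0402) it was 0.08, -0.29 and -0.47. For aralar1 (adjusted p = 0.0211) it was -0.05, 0.32 and -0.23, and for Ldh (adjusted p = 0.0207) -1.63, -2.90 and -3.06. The ScsbetaG call was lost with quantile normalization (adjusted p = 0.180), and the Got1 call with a pseudocount of 0.1 (adjusted p = 0.0536) or no filter (adjusted p = 0.0520). With 1 sample left out in turn, the lost ScsbetaG calls reached adjusted p of 0.0527 to 0.0749, the lost Got1 calls 0.0536 to 0.0897, and aralar1 was lost without 12-16 h control replicate 1 (adjusted p = 0.0507). Over the 26 alternatives run, each sample left out among them, the call held in 15 for ScsbetaG, 12 for Got1, 24 for aralar1 and 25 for Ldh. Groups of 3 samples are too small for a test of single outlying samples.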

How the results depend on the processing

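Every count of members called at 8-12 h and 16-20 h stayed at 0 under all alternatives run. At 12-16 h, where 1 member was called, the count was 0 with the replicate block, 0 with single-stage fits, 0 with the maternal RNA covariate, 0 with a size limit of 1 on the log2 fold change, 2 with limma-voom, and 0 to 3 with 1 sample left out. In larvae, where 1 was called, it was 0 with the replicate block, 0 with a size limit of 1 on the log2 fold change and 0 to 1 with 1 sample left out. Over the late step in mutant embryos quantile normalization gave 3 of 5; with 1 sample left out the early step gave 4 to 5 in mutants and 3 to 4 in controls. Under other alternatives than leaving out a sample, values of members kept their side of the threshold in 400 cases, lost it in 9, gained it in 1, and changed sign without a call in 12. ATPCL at 12-16 h reversed to 0.10 with the maternal RNA covariate (limma adjusted p = 0.864).

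The count of all genes called moved as well. At 8-12 h it was 382, against 197 with the replicate block, 81 with single-stage fits, 152 with the covariate and 111 to 752 with 1 sample left out. At 12-16 h it was 2148, against 773 with single-stage fits, 82 with the covariate and 1317 to 2127 with 1 sample left out. At 16-20 h it was 1073, against 145 with the covariate and 561 to 1022 with 1 sample left out. In larvae it was 810, against 485 with no filter, 133 with the replicate block and 200 to 797 with 1 sample left out. The share of calls that were higher in mutants was 56.9% at 12-16 h against 38.4% with quantile normalization, 54.6% at 16-20 h against 41.3% with median centring, and 44.2% in larvae against 55.0% with quantile normalization. Of the stage calls, 55.3% and 56.0% were higher at the later stage over the 2 steps in mutants, against 36.5% and 39.5% with quantile normalization, and 52.9% and 56.1% in controls, against 40.1% and 37.9%.

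Replicate numbers did not pair samples, since same-numbered deviations correlated at -0.39 to 0.097 and 4 of 24 samples correlated best with their own number. With the replicate block Scsalpha1 at 12-16 h had a limma adjusted p of 0.0597 and Mdh1 in larvae 0.0735; the calls of Ogdh at 8-12 h, aralar1 at 12-16 h, the larval ScsbetaG, Got1, Idh and Men, and the 4 between-stage differences were lost as well (0.0511 to 0.129). With 1 sample left out, log2 ratio differences ran from -0.785 to -0.657 for Mdh1 to Mdh2 and -0.148 to -0.0714 for Idh3a to Idh3b. For SdhA to SdhB they ran from 0.240 to 0.472, -0.603 to -0.209 and -0.321 to -0.122 at the embryo stages in order, -0.156 to -0.0245 over them, and -0.626 to -0.232 in larvae. Depth was an estimate, 3 samples a group limit precision, and no setting was tested for its cause.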
